A study of Mus musculus with 3 samples.

Results

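The proteasome is the large protease that degrades ubiquitin-tagged proteins, and its subunits and assembly factors were examined in activated regulatory T cells of the mouse. The members were the protein-coding genes whose symbol starts with Psma, Psmb, Psmc, Psmd, Psme, Psmf or Psmg, which gave 50 of 55536 annotated mouse genes, or of 22028 protein-coding genes. A further 4 genes that match by symbol (Psmb5-ps, Psmb6-ps, Psmb6-ps2 and Psmb7-ps2) are pseudogenes and were left out. By known function 49 members belong to the proteasome or its assembly. The remaining one, Psmc3ip, is a meiotic recombination factor whose symbol matches the rule.

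Regulatory T cells are CD4 T cells that depend on the transcription factor Foxp3 and restrain immune responses. The primary cells came from a 4-month-old adult male. Its strain, Foxp3CreERT2 x Rosa26YFP, carries an inducible Cre recombinase at Foxp3 and a yellow fluorescent reporter at Rosa26, and the source label traces the cells to bone marrow. There was 1 group with no control, made of 3 polyA RNA-seq libraries that are labelled technical replicates of 1 biological replicate, so every SD and p-value below measures the spread between libraries and not between animals. The sources used here do not give how the cells were sorted or activated, or whether Cre was induced.

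In the 20S core, rings of 7 alpha and 7 beta subunits enclose the active sites, which lie on beta1, beta2 and beta5. The 19S regulatory particle recognises ubiquitin chains, removes them and feeds the unfolded substrate into the core through a ring of ATPases. In lymphocytes and in cells exposed to interferon, the catalytic beta subunits are replaced during assembly by Psmb9, Psmb10 and Psmb8, which form the immunoproteasome and favour peptides that fit MHC class I. The PA28 activator of Psme1 and Psme2 is inducible by interferon as well.

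The libraries held 10981924, 9700630 and 6667391 expected counts in replicates 1, 2 and 3. The members together took 0.770%, 0.718% and 0.692% of these counts. Replicate 3 was the shallowest library and stood apart from the others in many genes. The common dispersion, a measure of scatter between libraries beyond sampling noise, was 0.0696 over all 3 libraries and 0.0242 without replicate 3. The regulatory T cell markers Foxp3, Il2ra, Ikzf2, Ctla4, Cd3e and Cd4 were all detected, with Foxp3 at 29.5, 28.7 and 49.8 TPM in replicates 1, 2 and 3. TPM counts a gene's transcripts as a share of all transcripts, a level corrected for transcript length, so levels of different genes can be compared on it within a library.

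The promoters of the members were read from RefSeq windows on GRCm38.p6 that run from 250 bases before to 50 bases after a start site. Of the 50 members, 42 matched 45 windows, since a gene with several start sites can hold more than 1, and Psma8, Psmb1, Psmb2, Psmb7, Psmc3, Psmd3, Psmd7 and Psmg2 did not. The windows were searched on both strands for the core of the interferon-stimulated response element, which is GAAA, 2 bases of any kind and GAAA again, and for the core of the gamma-activated site, TTCNNNGAA, an element of interferon-responsive promoters. The letters GAA end the second and begin the first, so the motifs can overlap, but no member held both. The stretches below show the members with either motif, 5′ to 3′ on the strand of the gene, with the match in capitals.

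The gamma-activated core was in 3 of the 45 member windows (6.67%), of 3 members, against 8.30% of all 32851 windows. For Psmb8 the match began 97 bases before the start site, in chr17:34198088-34198117. It lay 5 bases after the start of Psmd2, in chr16:20651646-20651675, and 243 bases before that of Psmg1, in chr16:95991181-95991210.
Psmb8: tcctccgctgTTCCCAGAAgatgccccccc
Psmd2: gcgcgtggccTTCTGGGAAaaggggcggtg
Psmg1: actcatgTTCTCTGAAtccgcttgcagtca

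The interferon-stimulated core was in 5 of the 45 member windows (11.1%), of 5 members, against 3.44% of all windows. Of these, only Psme1 belongs to the members known for induction by interferon, and its match began 10 bases after the start site, in chr14:55578493-55578522. The other members were Psmb3 (chr11:97703261-97703290), Psmd4 (chr3:95042675-95042704), Psmd9 (chr5:123228021-123228050) and Psmg4 (chr13:34162969-34162998). In Psme1, Psmb3 and Psmd4 the motif reads in the opposite direction to the gene.
Psme1: cgagctgtgcTTTCGCTTTCccttcccgct
Psmb3: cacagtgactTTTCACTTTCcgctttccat
Psmd4: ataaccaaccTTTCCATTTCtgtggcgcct
Psmd9: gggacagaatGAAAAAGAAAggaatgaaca
Psmg4: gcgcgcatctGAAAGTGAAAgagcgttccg

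Proteasome genes are also known targets of NRF1, which binds antioxidant response elements, here searched as TGACNNNGC, and their promoters often carry the CCAAT box. The antioxidant response element was in 6 of the 45 member windows (13.3%) against 12.4% of all windows, those of Psmb5, Psmb6, Psmc6, Psmd12, Psmd9 and Psme4. Its matches in the standard catalytic subunits Psmb5 (chr14:54618023-54618052) and Psmb6 (chr11:70525338-70525367) are shown as the counterparts of the immunoproteasome promoters. In Psmd9, which held this element and the interferon-stimulated core, the matches began 31 and 159 bases before the start and did not overlap. The CCAAT box was in 15 member windows (33.3%) against 37.4% of all windows.
Psmb5: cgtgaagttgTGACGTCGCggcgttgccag
Psmb6: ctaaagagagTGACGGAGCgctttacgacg

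These are matches of letters and no measure of binding. The windows of Psmb9, Psmb10, Psme2 and Psme2b held neither interferon motif, which says only that these letters are not in the stretch searched.

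Proteasome transcripts were abundant in every library. Of the 50 members, 48 had at least 1 TPM in all 3 libraries, against 45.3% of protein-coding genes. The median over these 48 members was 157 TPM, against 20.9 TPM over all detected protein-coding genes. By class, the median of log2(TPM + 1) was highest for the standard beta subunits at 8.19 ± 0.05 (SD, n = 3), followed by the immunoproteasome subunits at 8.08 ± 0.33 and the alpha subunits at 7.80 ± 0.12. The order of the first 2 rested on replicate 3, in which the immunoproteasome median was 7.70 and the standard beta median 8.18. In replicates 1 and 2 the immunoproteasome median was the higher, at 8.31 and 8.23 against 8.24 and 8.15, as it was in a second deposited quantification made from the read files, at 7.42 against 7.32. Without replicate 3 the means were 8.27 and 8.20. The alpha median was within 1 SD of the immunoproteasome median, whereas the standard beta median exceeded the alpha median in each library. The 19S ATPases followed at 7.35 ± 0.11, the 19S non-ATPase subunits at 6.93 ± 0.02, the activators and the inhibitor at 6.64 ± 0.19 and the assembly factors at 5.47 ± 0.06.

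**Figure D1:**
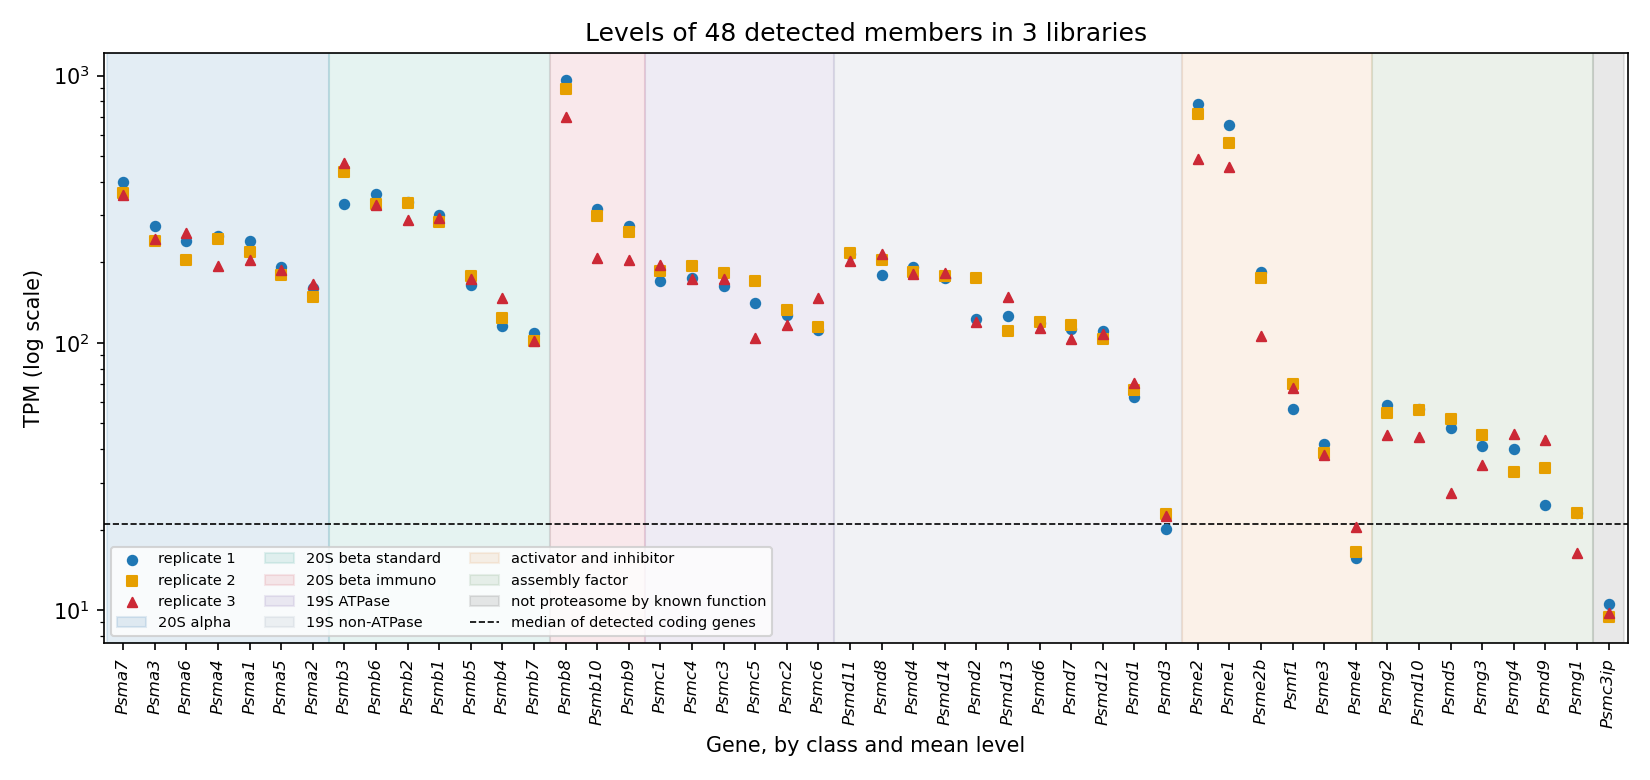
TPM (log axis) of the 48 detected members in each of the 3 libraries, grouped by class and sorted by mean, with one symbol per library. The line marks the median of detected protein-coding genes, 20.9 TPM: 28 of the 31 core subunits had a mean between 100 and 400 TPM, the assembly factors sat lower, and Psmb8, Psme2 and Psme1 were the 3 highest genes.

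The 20S alpha, standard beta and 19S subunits numbered 31 and are called core subunits here, although the 19S particle lies outside the 20S core. They include Psmb5, Psmb6 and Psmb7, which the immunoproteasome subunits can replace. The mean levels of the 31 ran from 21.9 TPM for Psmd3 to 412 TPM for Psmb3, with a median of 179 TPM, and 28 of them lay between 100 and 400 TPM. The exceptions were Psmd3 and Psmd1 below and Psmb3 above.

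The alpha subunits form the outer rings and the gate of the core. Psma7 (alpha4) was the highest at 401, 365 and 357 TPM in replicates 1, 2 and 3. Psma2 (alpha2) was the lowest at 160, 149 and 166 TPM. Every library of Psma7 lay above every library of Psma2, and the class spanned 2.36-fold from lowest to highest mean.

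Among the standard beta subunits, the non-catalytic Psmb3 (beta3) was the highest at 331, 435 and 469 TPM. The catalytic Psmb7 (beta2, with trypsin-like activity) was the lowest at 109, 102 and 102 TPM. Psmb6 (beta1, caspase-like) had 361, 330 and 327 TPM. Psmb5 (beta5, chymotrypsin-like) lay between these catalytic subunits at 165, 178 and 174 TPM, with no overlap of either. The level of Psmb3 rests in part on sequence it does not hold alone, since 55.8% of the 50-base stretches of its transcript occur in 7 other genes. The copy with the most shared stretches, AC114990.1, was at 2.14 TPM.

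The ATPases that drive unfolding were the tightest class, with means that spanned 1.47-fold. Psmc1 (Rpt2) was the highest at 171, 185 and 195 TPM. Psmc6 (Rpt4) was the lowest by mean at 112, 115 and 147 TPM, and its range overlapped the range of Psmc5 (Rpt6), which had 141, 170 and 104 TPM. Neighbours in this order were therefore not separated by the spread between libraries.

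The non-ATPase subunits form the base and lid of the regulatory particle. Psmd11 (Rpn6), a lid subunit that clamps the particle to the core, was the highest at 214, 217 and 202 TPM. Psmd3 (Rpn3), also of the lid, was the lowest at 20.2, 22.8 and 22.6 TPM. Psmd3 stood 8.18-fold below the median of the 31 core subunits in the main table, and none of its 50-base stretches occurred in another gene. The distance was 8.06-fold in the second quantification. It was 8.26-fold in a further table of whole-number counts on the older M4 annotation, divided here by coding bases. The next lowest core subunit, Psmd1 (Rpn2), a scaffold of the base, had a mean of 66.8 ± 4.15 TPM (SD, n = 3). Psmd3 lies at chr11:98682554-98695979 on mm10. The ubiquitin receptor Psmd4 (Rpn10) and the deubiquitinase Psmd14 (Rpn11), which removes the ubiquitin chain from the substrate, had means of 186 ± 6.11 and 179 ± 3.89 TPM, near the core median.

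The immunoproteasome subunits were compared with the standard subunit that each replaces. Psmb8 (beta5i) had 964, 893 and 701 TPM and ranked 143 among detected protein-coding genes. Its log2 ratio to Psmb5 was 2.55, 2.33 and 2.01 in replicates 1, 2 and 3, with a mean of 2.30 ± 0.27 (SD, n = 3), or 4.91-fold. Psmb8 exceeded Psmb5 in each library, and without replicate 3 the mean log2 ratio was 2.44. The counting error of each log2 ratio was 0.048 to 0.060, well below the spread between libraries. Psmb5 does not hold its sequence alone, since 57.1% of its 50-base stretches occur in 3 other genes. The copy with the most shared stretches, the processed pseudogene Gm3375, was at 0.38 TPM. The mean log2 ratio of Psmb8 to Psmb5 was 2.17 in the second quantification and 2.88 in the M4 counts per coding base.

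Psmb10 (beta2i) had 316, 299 and 207 TPM and also exceeded its counterpart in each library. The log2 ratio of Psmb10 to Psmb7 was 1.54, 1.55 and 1.02, with a mean of 1.37 ± 0.30 (SD, n = 3), or 2.58-fold. Replicate 3 gave the lowest ratio of the libraries, and the mean log2 ratio without it was 1.54. Of the 50-base stretches of the Psmb7 transcript, 28.1% also occur in Nek6, which was at 4.80 TPM. The mean log2 ratio of Psmb10 to Psmb7 was 1.51 in the second quantification and 1.14 in the M4 counts per coding base.

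Psmb9 (beta1i) went the other way and was below its counterpart, at 273, 260 and 203 TPM. The log2 ratio of Psmb9 to Psmb6 was -0.40, -0.34 and -0.69, with a mean of -0.48 ± 0.18 (SD, n = 3), so that Psmb6 was 1.39-fold higher. This ratio depended on the quantification, with -0.28 in the second quantification and -0.054 in the M4 counts per coding base. On the last, the pair was nearly level. Without replicate 3 the mean log2 ratio was -0.37.

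As shares of the TPM of a pair, the immunoproteasome subunit held 83.0% ± 2.64 for beta5, 72.0% ± 4.30 for beta2 and 41.8% ± 3.10 for beta1 (SD, n = 3). The beta1 share did not overlap the others in any library. An exact two-sided sign-flip test over 3 libraries cannot give a p below 0.25, so none is reported for these ratios.

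**Figure D2:**
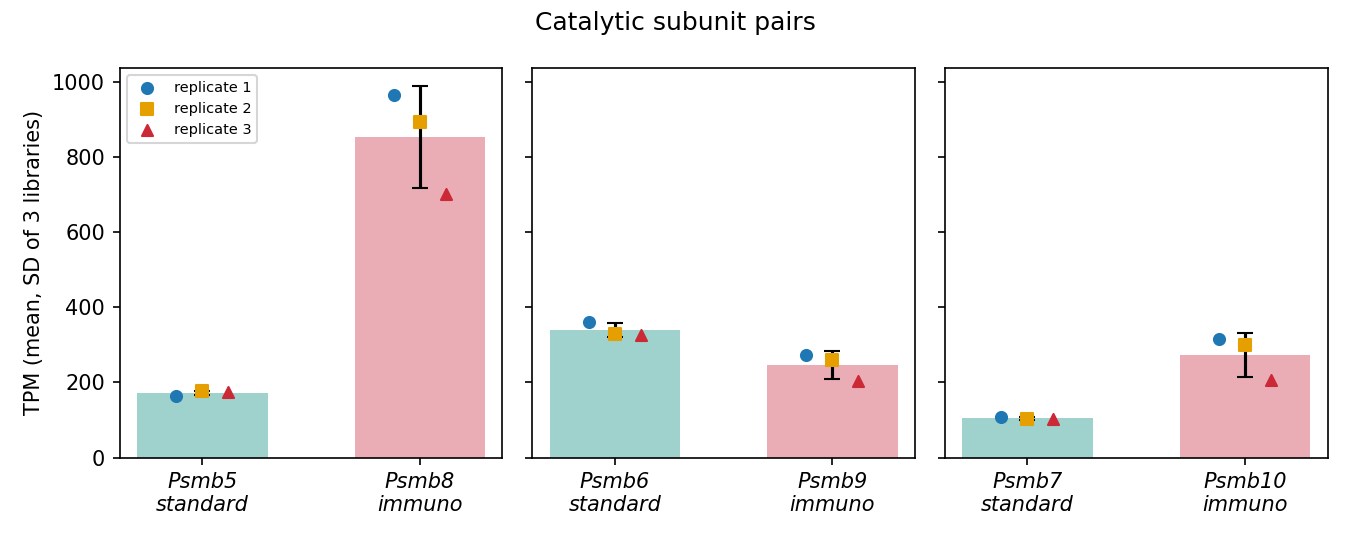
TPM of each standard catalytic subunit (left bar of a panel) and of the immunoproteasome subunit that replaces it (right bar). Bars are means of 3 libraries, error bars SD, and symbols the single libraries: Psmb8 and Psmb10 lay above their counterparts in every library and Psmb9 below its own.

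Psmb8 and Psmb9 both lie in the MHC region, at chr17:34197721-34201454 on the plus strand and chr17:34181987-34187764 on the minus strand of mm10. The peptide transporter gene Tap1 (chr17:34187553-34197225) lies between them, and Tap2 (chr17:34203527-34216321) lies on the other side of Psmb8. Tap1 and Psmb9 are read in opposite directions and their annotated 5′ ends overlap by 212 bases. Of the 50-base stretches of the Psmb9 transcript, 12.5% also occur in Tap1. Psmb8 shares 5.83% with the antisense gene Gm20496, which had 0, 1.16 and 9.12 TPM. The sources used here do not say whether the counting used strand, so reads of such overlaps cannot be told apart.

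The makeup of these levels by transcript model bears on the ratios. Of the Psmb8 level, 33.2% ± 2.09 (SD, n = 3) was assigned to models not labelled protein-coding, called non-coding here. For other members these include models labelled nonsense-mediated decay, such as Psmb9-207 at 27.44, 39.11 and 15.25 TPM. The coding model Psmb8-203 held 635, 574 and 433 TPM, and the retained-intron model Psmb8-205 held 279, 290 and 211 TPM. For Psmb10 the non-coding share was 45.5% ± 0.59 and for Psmb9 31.5% ± 6.63. In the second quantification these shares were larger, at 45.7% for Psmb8, 62.9% for Psmb10 and 57.4% for Psmb9. In the main table Psmb5 had none, and Psmb7 and Psmb6 had 1.12% and 10.2%. With coding models alone, the log2 ratio fell to 1.71 for Psmb8 to Psmb5 and to 0.51 for Psmb10 to Psmb7. For Psmb9 to Psmb6 it was -0.87. Psmb8 and Psmb10 stayed above their counterparts in each library of the main table on this count, with Psmb10 lowest at 0.14 in replicate 3. In the second quantification the coding-only log2 ratio was 1.29 for Psmb8 to Psmb5 and -1.39 for Psmb9 to Psmb6. That of Psmb10 to Psmb7 was 0.29, 0.19 and -0.21 in replicates 1, 2 and 3, so the pair was nearly level there and Psmb10 was the lower in replicate 3.

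Psmb9 also changed in makeup between libraries. Its longest coding model, Psmb9-204, held 62.3%, 56.5% and 35.0% of the gene's transcripts in replicates 1, 2 and 3. The short coding model Psmb9-202 held 7.01%, 2.46% and 33.5%. Replicate 3 was thus low in the first model and high in the second.

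Over the 48 detected members the median non-coding share was 6.98%, against 13.3% over all detected protein-coding genes. A share of at least 30% was found in 10 members (20.8%), against 30.4% of detected protein-coding genes. The highest was Psma3 (alpha7) with 59.3% ± 6.76, followed by Psmc3ip with 54.9% and Psmb4 (beta7) with 49.0% ± 1.64. Psmc3ip, at 10.5, 9.46 and 9.75 TPM, ranged from 2.33% in replicate 2 to 100% in replicate 1, on fewer than 100 counts per library. Psma3 shares 22.0% of its 50-base stretches with the processed pseudogene Gm13835, which was listed at 200 ± 37.4 TPM in the main table and at 41.9 TPM in the second quantification.

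**Figure D3:**
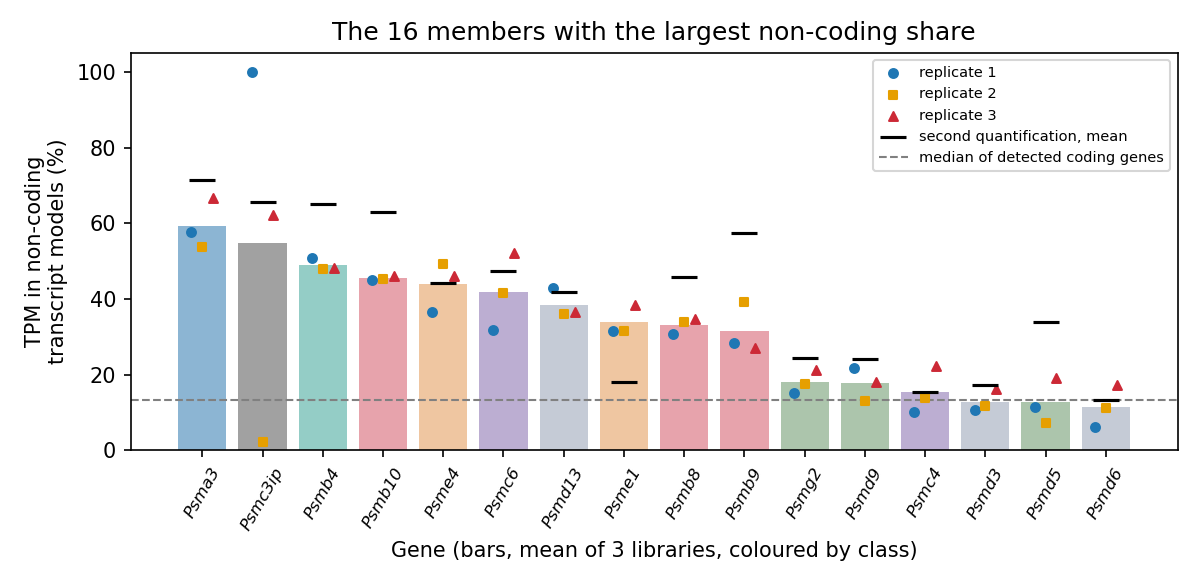
Percent of a member's TPM in transcript models not labelled protein-coding, for the 16 members with the highest shares. Bars are means of 3 libraries, symbols the libraries and short lines the mean of the second quantification; the shares of Psmb8, Psmb9 and Psmb10 were 33.2%, 31.5% and 45.5%, above the median of detected protein-coding genes (dashed, 13.3%).

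The activators open the gate of the core independently of the ATPases. Psme1 (PA28 alpha) had 651, 557 and 454 TPM. Psme2 (PA28 beta), with which it forms one ring, had 782, 717 and 489 TPM. The pair sits on chromosome 14 in opposite directions, Psme1 at 55578123 to 55581529 and Psme2 at 55587441 to 55591113, with 5911 bases between. Psme2 exceeded Psme1 in each library, by a mean log2 ratio of 0.24 ± 0.13 (SD, n = 3). That ratio was 1.09 in the second quantification and 0.04 in the M4 counts.

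Psme2b, an intronless copy of Psme2 at chr11:48945354-48946190, was listed at 184, 175 and 106 TPM. It shares 69.3% of its 50-base stretches with other genes, and Psme2 shares 59.3%, so how reads were divided between the copies is uncertain. Its level was 77.4 TPM in the second quantification.

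The other activators were far lower. Psme3 (PA28 gamma), a nuclear activator, had 41.9, 38.6 and 37.9 TPM. Psme1 exceeded it by a log2 ratio of 3.80 ± 0.19 (SD, n = 3), or 13.9-fold. Psme4 (PA200), linked to chromatin and to male germ cells, was the lowest of the class at 15.7, 16.5 and 20.4 TPM. Psmf1 (PI31), which inhibits the isolated core in vitro, had 56.3, 69.9 and 67.7 TPM.

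The assembly factors bind maturing particles and leave them before or at completion. Psmg1 and Psmg2 form the PAC1 and PAC2 chaperone of the alpha ring, with 23.1, 23.1 and 16.4 TPM for Psmg1 and 58.6, 54.8 and 45.4 TPM for Psmg2. Although the proteins act as a pair, Psmg2 exceeded Psmg1 in each library. Psmg3 (PAC3) had 41.2, 45.2 and 35.0 TPM. Its partner Psmg4 (PAC4) had 40.0, 32.8 and 45.7 TPM, a range that overlapped that of Psmg3.

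Psmd5 (S5b), Psmd9 (p27) and Psmd10 (gankyrin) are chaperones of the 19S base. Psmd10 had 56.7, 56.2 and 44.5 TPM. Psmd5 had 47.9, 51.9 and 27.5 TPM, with replicate 3 low. Psmd9 had 24.8, 34.0 and 43.3 TPM, with replicate 3 high.

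Both members below detection are known from other tissues. Psmb11, the beta5 subunit of the thymoproteasome of cortical thymic epithelium, was at 0, 0.37 and 0 TPM, from 0, 2 and 0 counts. The second quantification listed it at 0.45, 1.15 and 0.75 TPM, still under 1 in replicates 1 and 3. It lies 3410 bases from Psmb5 on chromosome 14. A count of 0 allows up to 3 counts in a library. The other markers of cortical thymic epithelium were at or near 0 as well, with Foxn1 at 0 in every library and Krt8 at 0.08 TPM in one, whereas Ly75, which other cells express, had 12.3, 13.0 and 9.99 TPM. Psma8, the alpha subunit of the testis, was at 0, 0.24 and 0.56 TPM.

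Each member was tested for whether its counts differed between the 3 libraries by more than sampling noise, with a chi-square test adjusted by Benjamini-Hochberg over 12997 genes. This was called for 38 of 48 members (79.2%), against 65.3% of all genes tested. The count rests on which libraries enter: without replicate 1 it was 23 of 48 (47.9%), against 51.5% of all genes, and without replicate 3 it was 31 (64.6%), against 31.9%. Deeply counted genes are called more often, and the median of the mean count was 1448 for members and 216 for all genes tested. Among genes whose mean count reached 500, 33 of 39 members (84.6%) were called, against 87.3% of all such genes. With all 3 libraries the share among deeply counted genes was therefore close to the background. Without replicate 1 it was 51.3% of members against 73.2% of such genes, and without replicate 3 it was 72.5% against 53.5%, so it lay below or above the background with the libraries used.

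When the scatter typical of genes of the same abundance was added to the model (the trended dispersion of edgeR), 0 members were called, against 1.31% of all genes. No member had an unadjusted p below 0.05 in that model either, and the lowest was 0.130 for Psmd9. The share of all genes with an unadjusted p below 0.05 was not computed, so that count has no background here. The median coefficient of variation over the libraries was 9.36% for members and 8.06% for the 31 core subunits. It was 18.9% for all genes tested and 13.4% for those whose mean count reached 500.

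The members with the strongest departure from sampling noise were Psme2 (adjusted p = 4.02e-82), Psme1 (1.74e-58), Psmb9 (8.19e-42), Psmb8 (4.10e-41) and Psmd2 (2.96e-32). The first 4 are known for induction by interferon and were lowest in replicate 3. Psmd2 (Rpn1), a docking subunit of the base, had 123, 175 and 120 TPM. It was also lowest in replicate 3, but replicate 1 was close to that level and replicate 2 stood high. The 5 with the least departure were Psmc3 (Rpt5, adjusted p = 0.863), Psmc3ip (0.756), Psmb5 (0.444), Psmd3 (0.388) and Psmg3 (0.370). The ATPase Psmc3 had 164, 182 and 174 TPM. The other members not called were Psmc2, Psmc4, Psmd1, Psmd7 and Psmg4.

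On TMM-scaled counts, replicate 3 was lowest and the gene called beyond sampling noise for 15 of 48 members (31.2%), against 27.8% of all genes tested. By known biology 6 members are inducible by interferon or copy such a gene, namely Psmb8, Psmb9, Psmb10, Psme1, Psme2 and Psme2b, and all 6 were lowest in replicate 3 on these counts and on TPM. Their log2 ratio of replicate 3 to the mean of replicates 1 and 2, on TPM, ran from -0.39 for Psmb9 to -0.76 for Psme2b, with a median of -0.49. For Psmb8 it was -0.41, for Psmb10 -0.57, for Psme1 -0.41 and for Psme2 -0.62. The 31 core subunits had a median of 0.00 on this ratio, and 14 of them were lowest in replicate 3 on TPM and 8 on TMM-scaled counts. Over all detected protein-coding genes the median was -0.04.

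On TPM the core subunits ranged from -0.58 to 0.38, and 1 of them, Psmc5, lay within the range of the interferon-inducible members. On TMM-scaled counts those members ran from -0.30 for Psmb8 to -0.71 for Psme2, with Psmb9 at -0.68. Psma4 (-0.32) and Psmd2 (-0.31) then lay within that range, as did Psmc5 (-0.51). Outside the core, Psmd5 was lower still in replicate 3 on TPM, at -0.86, and Psmg1 was at -0.50, whereas Psmd9 was higher at 0.56. On TMM-scaled counts Psmd5 was at -0.59, within the range of the interferon-inducible members. The medians of the 6 and of the core were -0.60 and 0.00 on TMM-scaled counts, -0.48 and 0.09 in the second quantification, and -0.58 and 0.04 in the M4 counts. This difference between the lists has no test of its own, and replicate 3 is 1 library.

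**Figure D4:**
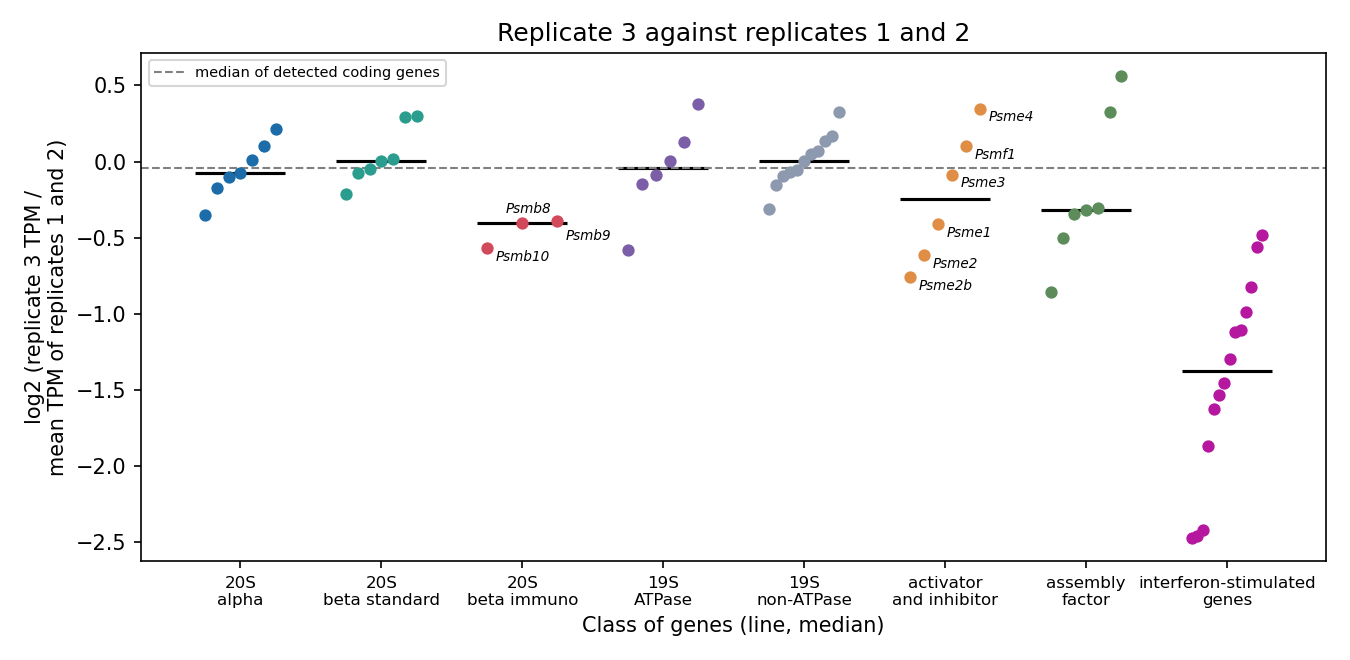
Log2 ratio of the TPM in replicate 3 to the mean of replicates 1 and 2 for each member by class, with a list of interferon-stimulated genes at the right. Points are genes, short lines class medians and the dashed line the median of detected protein-coding genes (-0.04): Psmb8, Psmb9, Psmb10, Psme1, Psme2 and Psme2b lay from -0.39 to -0.76, and the interferon-stimulated genes had a median of -1.38.

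A list of 14 interferon-stimulated genes moved the same way. Of the 14, 13 were detected. All 14 were lowest in replicate 3 on TPM and all 14 were called beyond sampling noise, where 65.3% of all genes tested were called and 27.8% called and lowest in replicate 3. In the second quantification Mx1 was instead lowest in replicate 1, at 3.19, 5.02 and 4.69 TPM. The median log2 ratio of the list on TPM was -1.38. Irf1, which activates Psmb9 and Tap1 in interferon responses, had 241, 254 and 167 TPM. The highest of the list, Ifi27l2a, had 1542, 1159 and 549 TPM, and the lowest, Ifi44, had 3.97, 4.70 and 0.79 TPM. With the trended dispersion added, 1 of 14 was called, Ifit1 at 56.2, 38.2 and 12.9 TPM (adjusted p = 0.0335).

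Cell type markers differed between the libraries too. Their summed TPM in replicates 1, 2 and 3 was 2302, 2736 and 2222 for 6 regulatory T cell markers and 101, 67.4 and 83.9 for 5 B cell markers. It was 53.1, 9.62 and 101 for 3 plasma cell markers and 25.9, 7.48 and 25.2 for 4 myeloid markers. Replicate 3 was highest in plasma cell markers. The regulatory T cell sum joins genes that went opposite ways in that library. Ctla4, an inhibitory receptor, had 190, 250 and 612 TPM and was called with the trended dispersion added (adjusted p = 4.09e-05), and Foxp3 was also highest there. Cd3e, of the T cell receptor complex, had 1170, 1323 and 811 TPM, and Cd4 had 314, 421 and 244 TPM, both lowest there. The 4 dendritic cell markers summed to 2.60, 3.03 and 3.41 TPM, with Itgax at 0 in replicates 1 and 2. The 4 erythroid markers summed to 451, 5.09 and 16.7 TPM. The part of these cells in the levels of replicate 3 was not tested. In bulk RNA, fewer cells of a type and less RNA per cell cannot be told apart.

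The genes around the proteasome were read from lists. Of 17 partners outside the symbol rule 16 were analysed here, all 16 were detected, and 11 were called beyond sampling noise. For comparison, 45.3% of protein-coding genes were detected and 65.3% of all genes tested were called. Among genes whose mean count reached 500, 87.3% were called. Pomp, the maturation factor of the core, was the highest of the partners at 218, 267 and 189 TPM. It stood above every assembly factor among the members. Ubqln2, a shuttle for ubiquitinated substrates, was the lowest at 2.44, 1.54 and 1.16 TPM. The ubiquitin receptor Adrm1 (Rpn13) had 88.5, 107 and 126 TPM.

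All 7 genes linked to transcription of proteasome genes were detected, against 45.3% of protein-coding genes, and 5 were called, against 65.3% of all genes tested. Ngly1, the glycanase that helps to activate NRF1, was the highest at 55.3, 69.4 and 71.0 TPM. Nfya, a subunit of the factor that binds the CCAAT box, was the lowest at 9.33, 10.8 and 8.55 TPM. Nfe2l1, which encodes NRF1, had 17.4, 19.3 and 14.3 TPM.

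All 7 genes of ubiquitin and its activation were detected, against 45.3% of protein-coding genes. All 7 were also called, against 65.3% of all genes tested and 87.3% of those whose mean count reached 500. Of the 7, the polyubiquitin gene Ubb was the highest at 5070, 5053 and 4537 TPM, and the activating enzyme Uba6 the lowest at 10.9, 11.2 and 9.89 TPM.

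Of 11 genes that supply peptides to MHC class I, all were detected and called, against 65.3% of all genes tested called. Among genes whose mean count reached 500, 87.3% were called. Of the 11, 9 were called and lowest in replicate 3 on TMM-scaled counts, against 27.8% of all genes tested. On TPM 6 were lowest in replicate 3. This list and the interferon-stimulated one share members, Irf1 among them. B2m, the light chain of MHC class I, was the highest at 7703, 6227 and 5439 TPM. Erap1, which trims peptides in the endoplasmic reticulum, was the lowest at 52.8, 74.0 and 61.5 TPM. Tap2 had 116, 134 and 86.3 TPM and was lowest in replicate 3, as was the neighbouring Psmb8. Tap1 had 162, 204 and 180 TPM and was not. Like Tap1 and Erap1, the genes H2-K1, H2-D1 and Nlrc5 were lowest in replicate 1 on TPM. H2-K1 had 5168, 5707 and 5414 TPM, H2-D1 had 3216, 4122 and 3650 TPM, and Nlrc5 had 111, 119 and 122 TPM. With the trended dispersion added, 0 genes of these 4 lists were called, against 1.31% of all genes tested. In the last list 1 gene had an unadjusted p below 0.05, a share that was not computed over all genes.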

How the data were processed

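The members, gene lists and tests were chosen with earlier results of these data known. PolyA RNA-seq was deposited for 3 libraries, unscaled against each other, and the replicate number is the technical replicate number in the labels. The main gene and transcript tables hold expected counts and TPM that the authors computed from transcriptome alignments on gene models M21 and mm10, per the deposited file descriptions. The percent of a gene's transcripts in each model was also deposited by the authors in the transcript table. A second deposited transcript table holds estimated counts and TPM computed from the read files and an index, and its TPM were summed by gene. A further table holds whole-number counts per gene that the authors took from an alignment on M4, per the deposited file descriptions. These were divided by coding bases, which assumes that they count reads over coding sequence. The sources used here do not give the programs or the use of strand.

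Detection meant that every library reached a TPM of 1. Counts were rounded, and genes whose mean count reached 10 were tested by chi-square (2 df) against TMM sizes (edgeR 4.0.16, R 4.3.3), and Benjamini-Hochberg adjusted p below 0.05 was the threshold. A second model added the trended dispersion of edgeR, estimated from the same libraries as 1 group. Both were tried on simulated counts with a lower dispersion than these libraries have, so that trial does not show how they perform here. DESeq2 1.42.0 size factors, total-count scaling, no filter, the other tables, other pseudocounts and leaving out each library were alternatives. Coding-only ratios, ratios of Psme genes, values of replicate 3 against the others and levels of single members under other tables were added after the data were seen. Named with all library values were the catalytic subunits, the Psme, Psmf and Psmg genes, the 19S chaperones, Psmc3ip, the undetected members, the highest and lowest of each class, and the 5 members with the most and the least departure from sampling noise. Other lists were named by their highest, lowest and called genes. The genes Psmd1, Psmd4, Psmd14, Psmc5, Psma3, Psma4, Psmb4, Adrm1, Nfe2l1, Irf1, Mx1, Tap1, Tap2, H2-K1, H2-D1, Nlrc5, Ctla4, Cd3e and Cd4 were named after their values were seen. Shared sequence was the share of 50-base stretches of the longest coding transcript that occur in transcripts of other genes. Intervals and floors cover counting error only, since no molecular identifiers mark independent molecules.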

Additional observations from a re-analysis of the deposited data

How the results depend on the processing

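The 48 detected members stayed 48 under each alternative, and 0 members were called with the trended dispersion under each. The count beyond sampling noise (38) was 38 with DESeq2 size factors (79.2%, against 65.4% of all genes), 35 with total-count scaling (72.9%, 65.3%), 40 without a filter (80.0%, 32.4%) and 42 in the second quantification (85.7%, 60.4%). Leaving out 1 library gave 23 to 31, with 23 without replicate 1 (47.9%, 51.5%), 29 without replicate 2 (60.4%, 53.9%) and 31 without replicate 3 (64.6%, 31.9%). Fewer libraries enter those tests. The log2 ratio of Psmb8 to Psmb5 was 2.88 in the M4 counts per coding base and 1.71 with coding transcripts only. That of Psmb9 to Psmb6 was -0.28 in the second quantification, -0.054 in the M4 counts and -0.87 with coding transcripts only. That of Psmb10 to Psmb7 was 0.51 with coding transcripts only. With coding transcripts only in the second quantification they were 1.29, -1.39 and 0.090. No mean ratio of these pairs changed sign, but Psmb10 to Psmb7 did in replicate 3 in the last setting, and the cause of these shifts was not tested. Class medians of log2(TPM + 1) were lower in the second quantification, at 6.98 (alpha), 7.32 (standard beta), 7.42 (immunoproteasome), 6.48 (ATPase), 6.07 (non-ATPase), 5.69 (activator and inhibitor) and 4.74 (assembly factor). There the immunoproteasome class was above the standard beta class. The median detected protein-coding gene was at 0.585 of its main level in that table. Of the other values for single members and Psme ratios, 260 moved by less than the spread between libraries and 57 by more. The 260 include the mean levels, and the mean ratio of Psme1 to Psme3, with 1 library left out. Such a mean always lies within 1 SD of the mean of all 3 libraries, so leaving out a library did not test these values. In the second quantification the mean level moved by more than the spread for all members except Psma8, Psme2 and Psmg4. No paired analysis was possible because there is 1 group. With 1 animal, no value measures variation between animals, and at 0 to 2 counts the levels of Psmb11 and Psma8 could not be resolved at this depth.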
